A study of Oryza sativa with 24 samples.

Results

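The 4 H3K9ac peak lists describe how acetylation of lysine 9 of histone H3 in rice seedling shoots passed from 2 parents to their hybrids. They were chosen by antibody and line from the labels, and hold 121257 of the 410072 peaks in the 16 peak lists of the series. The parents were inbred rice cultivars, Nipponbare (japonica) and 93-11 (indica), and the F1 hybrids came from crosses in both directions, labelled Nipponbare/93-11 and 93-11/Nipponbare. Which of the 2 names stands for the seed parent is not stated. Whole shoots were harvested from soil-grown seedlings of all lines at the 4-leaf stage, after 4 weeks, with no treatment recorded. Each line is represented by 1 library, so no spread between replicates can be given, no difference between lines was tested, and every interval beside a share, apart from the ranges over shifted lists, is an exact Clopper-Pearson 95% interval that covers counting error only.

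H3K9ac is laid down by histone acetyltransferases and removed by deacetylases. It marks the start of transcribed genes, where it usually lies with H3K4me3, a methylation of the same histone that is also found at active promoters. H3K27me3 is the Polycomb mark of repressed genes, and DNA methylation in plants is densest in transposons. An F1 hybrid carries 1 copy of each parental genome, so a region acetylated in a single parent can be marked in the hybrid on 1 copy, on both or on neither. The lists do not separate the copies. In whole shoots, fewer cells with the mark and a weaker mark per cell cannot be told apart.

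The Nipponbare list held 30323 peaks covering 49.3 Mb, and the 93-11 list 28737 peaks covering 44.8 Mb. The Nipponbare/93-11 list held 31943 peaks covering 49.4 Mb, and the 93-11/Nipponbare list 30254 peaks covering 47.5 Mb. Median widths were 1503, 1446, 1433 and 1456 bp in that order. The lists give positions without heights or scores, and the reads behind them are unknown, so absence from a list means here that no peak was listed. Peaks of the parents that overlapped by at least 1 bp were merged into 33770 parental regions, of which 25122 held peaks of both parents, 5155 a Nipponbare peak alone and 3493 a 93-11 peak alone. A region was counted as kept in a hybrid when a peak of that hybrid overlapped it by at least 1 bp. With no second library of either parent, a peak of 1 parent alone cannot be told apart from one that another library of the same line would not list.

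H3K9ac regions common to both parents were nearly all kept, and those of 1 parent alone were kept about as often as not. Of the regions of both parents, 95.3% (23944 of 25122, 95 to 95.6%) were listed in both hybrids and 1.10% (0.977 to 1.24%) in neither. Of the Nipponbare-only peaks, 54.6% (2816 of 5155, 53.3 to 56.0%) were listed in both hybrids, 14.6% in Nipponbare/93-11 alone, 4.35% in 93-11/Nipponbare alone and 26.5% (25.3 to 27.7%) in neither. Of the 93-11-only peaks, 49.1% (1715 of 3493, 47.4 to 50.8%) were listed in both, 15.3% in Nipponbare/93-11 alone, 9.13% in 93-11/Nipponbare alone and 26.4% (25 to 27.9%) in neither. The intervals of the 2 single-parent classes overlapped for the share in neither hybrid, and did not for the share in both. The order of the share in both turned, with overlapping intervals, when each list was limited to peaks at or above its median width. It was then 33.9% (32.5 to 35.3%) for Nipponbare and 34.8% (33.2 to 36.3%) for 93-11. The order also depended on peak width in the full lists. Under 1000 bp the share was 24.6% (21.8 to 27.6%) for Nipponbare-only and 30.6% (27.9 to 33.5%) for 93-11-only peaks. At 1500 to 2000 bp it was 75.7% (73.2 to 78.1%) and 66.7% (62.4 to 70.8%). The other width classes went either way. Together, 7.59% of all parental regions (2564 of 33770) were listed in neither hybrid, and 277 of these had been listed in both parents.

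**Figure D1:**
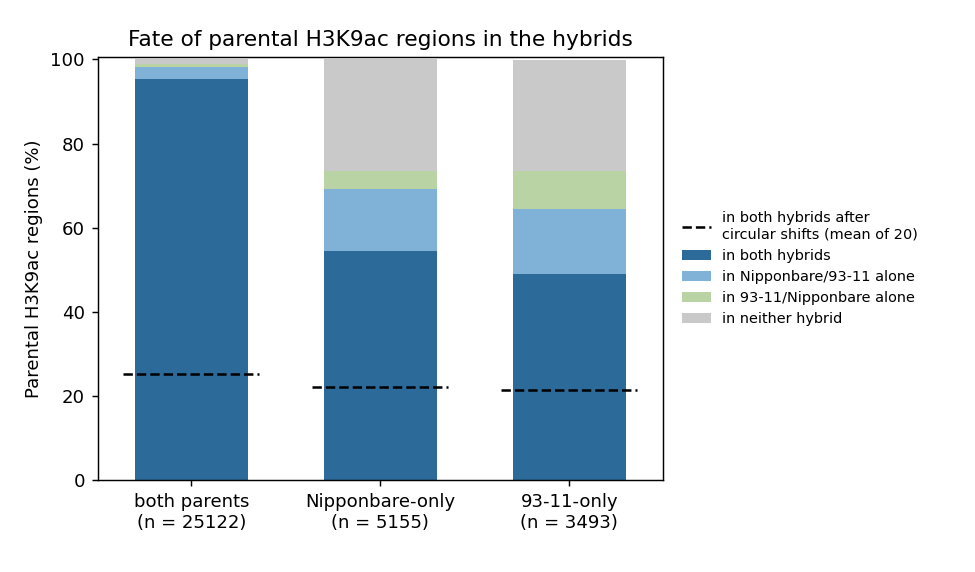
Stacked bars give the percentage of parental H3K9ac regions of each class that were listed in both hybrids, in 1 hybrid alone or in neither, and dashed lines give the share in both hybrids after circular shifts (mean of 20). Regions of both parents reach 95.3% in both hybrids, against 54.6% of Nipponbare-only and 49.1% of 93-11-only peaks, and all 3 bars stand above their shifted levels of 25.2, 22.1 and 21.6%.

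Chance overlap was gauged by sliding the hybrid lists around each chromosome by 20 fixed steps of 1 to 20 Mb. Shifted lists met a mean of 22.1% of Nipponbare-only peaks in both hybrids (lowest 21.3%, highest 23%) and 21.6% of 93-11-only peaks (19.6 to 23.8%). The unshifted shares lay above every one of the 20 shifts in both classes. Shifts of 20 to 200 kb, which keep a list within its own neighbourhood, gave 21.6 and 23.8%. Most hybrid peaks overlapped peaks of both parents, and after a shift these can fall on a single-parent peak by position alone. With the hybrid peaks that overlap the other parent left out, 54.2% of Nipponbare-only and 48.3% of 93-11-only peaks were still listed in both hybrids, against 2.42 and 1.54% after shifts. The shifted levels by width, H3K4me3 and chromosome given below use the whole hybrid lists, and so include such overlaps, unless stated otherwise.

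The Nipponbare/93-11 list kept more of each class than the 93-11/Nipponbare list. It listed 69.2% (67.9 to 70.5%) of Nipponbare-only peaks against 59.0% (57.6 to 60.3%), and 64.4% (62.8 to 66.0%) of 93-11-only peaks against 58.2% (56.6 to 59.9%). It was also the longer list. When all 4 lists were shortened to their 28737 widest peaks, the shares of Nipponbare-only peaks were 63.4 and 58.7%, and for 93-11-only peaks the order of the hybrids turned, at 49.2 and 52.1%.

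In base pairs, the hybrids covered most of each kept region. Nipponbare/93-11 peaks covered 85.9% of the 44.9 Mb of both-parent regions, 62.0% of the 7.30 Mb of Nipponbare-only peaks and 60.7% of the 4.69 Mb of 93-11-only peaks. For 93-11/Nipponbare the shares were 84.0, 53.0 and 56.2%. Within regions that were kept, coverage lay between 83.4% (Nipponbare-only in 93-11/Nipponbare) and 89.3% (93-11-only in Nipponbare/93-11). Few kept regions held several hybrid peaks: 0.778% held 2 or more Nipponbare/93-11 peaks and 0.630% 2 or more 93-11/Nipponbare peaks. Regions that already held 2 or more peaks of 1 parent were not set apart, so these are not rates of splitting. Of the hybrid peaks on parental regions, 0.209 and 0.259% spanned more than 1 of them.

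Narrow parental peaks were the ones most often missing from the hybrids. Among Nipponbare-only peaks under 1000 bp, 24.6% (21.8 to 27.6%) were listed in both hybrids, with a shifted level of 17.9%, and 50.1% in neither. Between 1000 and 1500 bp the share in both was 42.9% in the narrower of 2 classes and 59.4% in the wider. It was 75.7% (73.2 to 78.1%) at 1500 to 2000 bp and 73.6% at 2000 to 3000 bp, each class leaving out its upper limit. Wider peaks did not go on climbing: 58.6% of the 87 Nipponbare-only peaks of 3000 bp or more (47.6 to 69.1%) were in both hybrids, with a shifted level of 39.8%. For 93-11-only peaks the share went from 30.6% under 1000 bp to 66.7% at 1500 to 2000 bp and 65.5% (56.0 to 74.2%) at 3000 bp or more. Regions of both parents showed the same ordering at a higher level, from 73.2% under 1000 bp to 97.9% at 1500 to 2000 bp. Median widths followed: Nipponbare-only peaks in both hybrids measured 1469 bp and those in neither 1137 bp, and the 93-11-only medians were 1316 and 1038 bp.

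**Figure D2:**
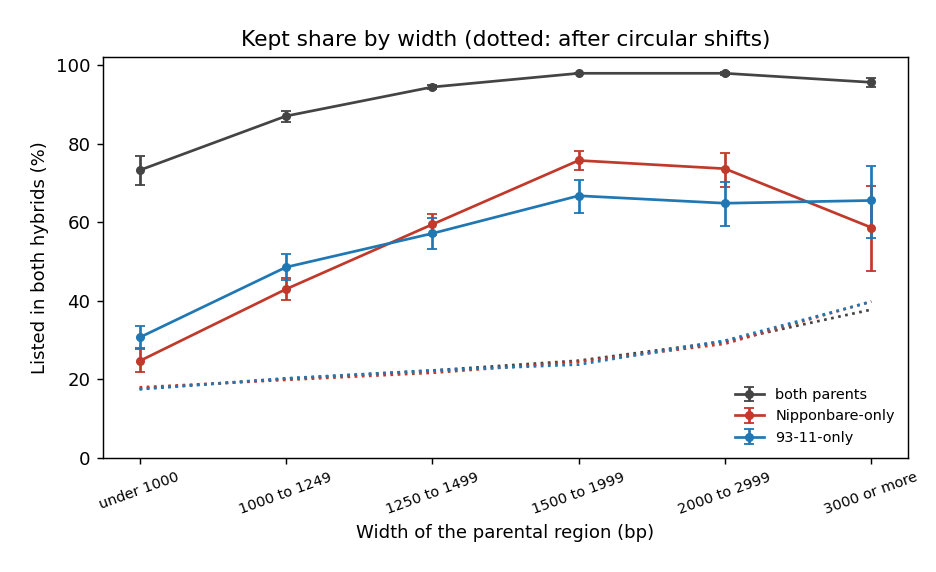
Points give the percentage of parental H3K9ac regions listed in both hybrids by width class in bp, with 95% counting intervals, and dotted lines the share after circular shifts (mean of 20). The solid lines climb up to 1500 to 2000 bp in all 3 classes, while the shifted level moves from 17.9 to 39.8% for Nipponbare-only peaks.

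A peak of 1 parent was kept far more often where H3K4me3 was listed at the same place. H3K4me3 came from other libraries and was not used to choose or classify the H3K9ac peaks. Of the 2720 Nipponbare-only H3K9ac peaks with H3K4me3 in Nipponbare and not in 93-11, both hybrids listed 76.1% (74.5 to 77.7%), compared with 58.2% (54.3 to 62.1%) of the 649 with H3K4me3 in both parents and 19.1% (17.2 to 21.1%) of the 1625 with it in neither. With hybrid peaks on 93-11 peaks left out, the shares were 75.9, 57.3 and 18.8%, and the levels after shifts 2.57, 2.53 and 2.15%. The last group thus stood above its shifted level by this count. By the whole hybrid lists it did not, at 19.1% against a shifted level of 20.4%. For 93-11-only peaks the share in both hybrids was 55.9% (53.1 to 58.8%) with H3K4me3 in 93-11 alone, 70.6% (67.6 to 73.4%) with H3K4me3 in both parents and 25.5% (23.1 to 28.1%) with it in neither. H3K4me3 in the other parent as well thus went with a lower share for Nipponbare-only peaks and a higher one for 93-11-only peaks. Median widths of these groups were ordered like the shares. Nipponbare-only peaks measured 1466 bp with H3K4me3 in Nipponbare alone and 1383 bp with it in both parents. For 93-11-only peaks the medians were 1241 bp with it in 93-11 alone and 1363 bp with it in both. The part of width in this contrast was not tested. Regions acetylated in both parents were kept in 97.7% of cases with H3K4me3 in both and in 71.8% (69.5 to 74.0%) with it in neither.

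At like width, single-parent peaks with H3K4me3 in their own parent were still kept more often than those without it. H3K4me3 in the other parent was not separated in this comparison. Nipponbare-only peaks of 1500 to 2000 bp were in both hybrids in 83.4% of cases with H3K4me3 in Nipponbare and in 28.6% (22.0 to 35.9%) without it, and those under 1000 bp in 135 of 270 cases with it and in 13.2% (10.6 to 16.2%) without. For 93-11-only peaks of 1500 to 2000 bp the shares were 75.2% with H3K4me3 in 93-11 and 39.7% (30.9 to 49%) without it. Peaks without H3K4me3 were thus kept less often in the narrow class and in the wide one. For Nipponbare-only peaks without it, the levels after shifts of the whole hybrid lists were 17.8% under 1000 bp and 23.9% at 1500 to 2000 bp. The narrow peaks without H3K4me3 thus lay below their shifted level. The part of H3K4me3 in the inheritance of H3K9ac was not tested.

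**Figure D3:**
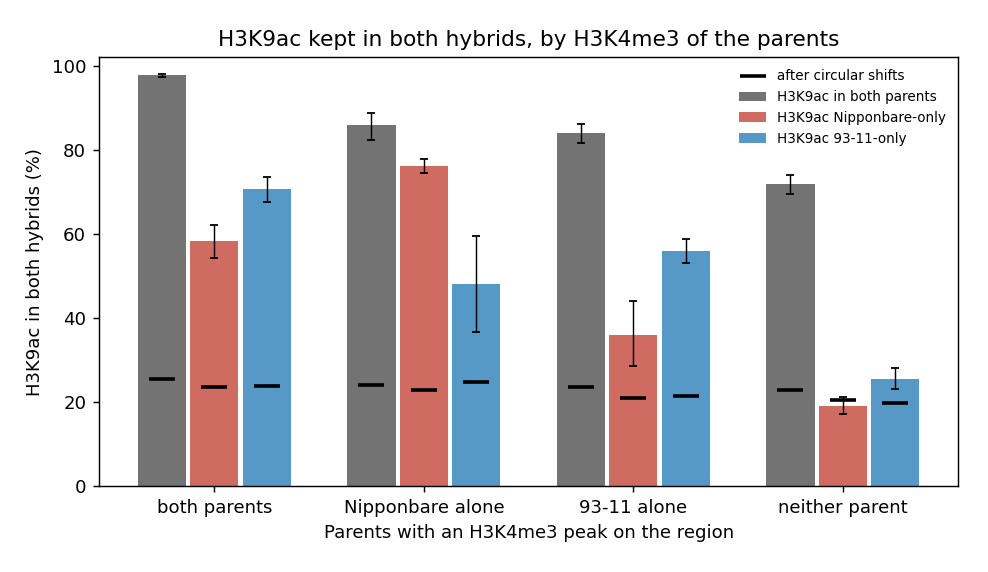
Bars give the percentage of parental H3K9ac regions listed in both hybrids, grouped by which parents had an H3K4me3 peak on the region, with 95% counting intervals, and black dashes the share after circular shifts of the whole hybrid lists (mean of 20), which include hybrid peaks on peaks of the other parent. Nipponbare-only peaks reach 76.1% where H3K4me3 is in Nipponbare alone. Where it is in neither parent they reach 19.1%, against 20.4% after shifts. Without those hybrid peaks the latter share is 18.8%, against 2.15% after shifts.

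H3K4me3 in the hybrids followed the same division. At Nipponbare-only H3K9ac peaks kept in both hybrids, H3K4me3 was listed on 86.9% in Nipponbare itself and on 15.5% in 93-11, while Nipponbare/93-11 had it on 87.1% and 93-11/Nipponbare on 77.8%. At those in neither hybrid it was listed on 29.5, 12.8, 23.4 and 20.5% in the same order of lines. At 93-11-only peaks kept in both hybrids the shares in this order were 42.6, 79.4, 80.1 and 76.4%, and at those in neither 9.75, 38.1, 25.5 and 25.6%. The parent without the H3K9ac peak also differed between the classes: Nipponbare had H3K4me3 without H3K9ac at 30.4% (28.9 to 31.9%) of all 93-11-only peaks, and 93-11 at 15.7% (14.7 to 16.7%) of all Nipponbare-only peaks.

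H3K27me3 and DNA methylation separated kept from missing peaks less. Nipponbare-only peaks with H3K27me3 in Nipponbare were in both hybrids in 60.8% of cases, against 51.0% without it, and 93-11-only peaks with H3K27me3 in 93-11 in 56.0%, against 43.8%. By H3K27me3 in the other parent the shares were 48.8% with and 55.7% without it for Nipponbare-only peaks, the opposite order, and 57.8 and 45.6% for 93-11-only peaks. By DNA methylation in the peak's own parent they were 58.6% with and 54.0% without it for Nipponbare-only peaks, and 43.3 and 49.9% for 93-11-only peaks. By DNA methylation in the other parent they were 51.4 and 55.2% for Nipponbare-only peaks, and 44.7% with it against 1441 of 2880 peaks without it for those of 93-11. 93-11-only peaks at which Nipponbare had DNA methylation were in neither hybrid in 36.7% of cases, against 24.2% where it had none. For Nipponbare-only peaks the corresponding shares, by DNA methylation in 93-11, were 28.3 and 26.1%.

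Width in the hybrid was compared where a parental region held 1 peak per listing parent and met exactly 1 hybrid peak that touched no other region. A hybrid peak under 0.8 times the parental width was called narrowed, and widened where the parental peak was under 0.8 times the hybrid width. Over all such matches, 12.2% of 54353 comparisons with Nipponbare/93-11 were narrowed and 8.28% widened, and with 93-11/Nipponbare 12.2% of 52582 and 9.11%. This background pools both reference parents and all classes. Nipponbare-only peaks were narrowed more often, at 26.1% (24.7 to 27.6%) in Nipponbare/93-11 and 28.5% (26.9 to 30.1%) in 93-11/Nipponbare, and widened in 4.89 and 4.34%. Against the Nipponbare width, regions of both parents were narrowed in 12.7 and 13.1% and widened in 6.28 and 7.26%. For 93-11-only peaks, 14.6 and 15.4% were narrowed and 11.7 and 11.3% widened. Against the 93-11 width, regions of both parents were narrowed in 9.51 and 9.01% and widened in 10.5 and 11.4%. Median hybrid widths were 0.914 and 0.901 times the Nipponbare width at Nipponbare-only peaks, against 0.968 and 0.973 at regions of both parents. They were 0.982 times the 93-11 width in both hybrids at 93-11-only peaks, against 1.0 at regions of both parents.

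**Figure D4:**
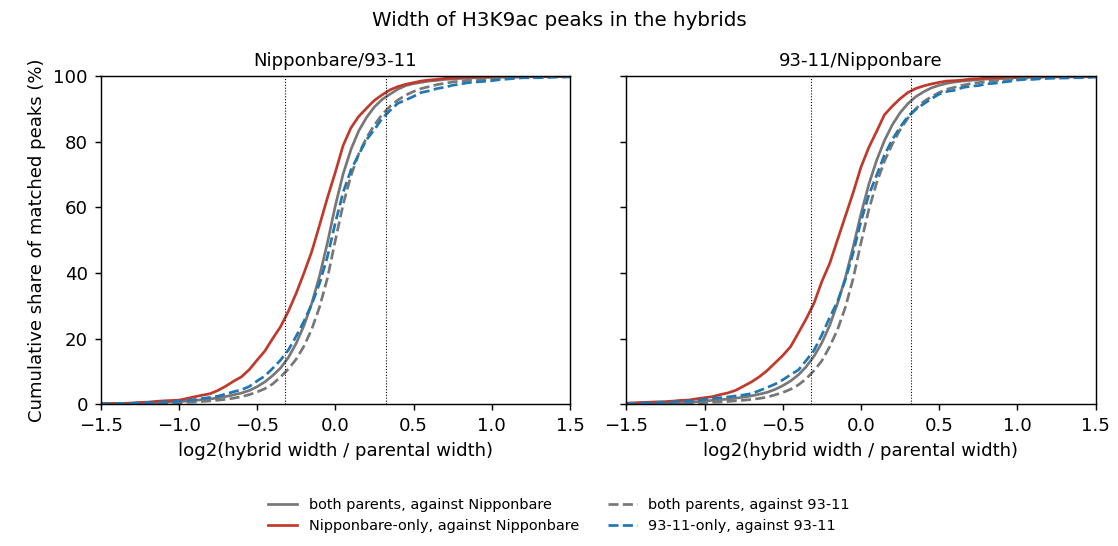
Curves give the cumulative percentage of matched H3K9ac peaks by log2 of hybrid width over parental width, in Nipponbare/93-11 (left) and 93-11/Nipponbare (right), with dotted verticals at the limits for narrowed and widened peaks. The Nipponbare-only curve lies to the left of the others, with medians of 0.914 and 0.901, while the 93-11-only curve (median 0.982) lies near those of the regions of both parents.

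The width ratio of Nipponbare-only peaks was also below that of regions of both parents at like parental width. The narrowest peaks were not narrowed by the median. Under 1000 bp the median ratios to the Nipponbare width were 1.03 (Nipponbare/93-11) and 1.06 (93-11/Nipponbare) for Nipponbare-only peaks. For regions of both parents they were 1.11 and 1.20. At 1500 to 2000 bp the median ratio to the Nipponbare width was 0.888 for Nipponbare-only peaks and 0.951 for regions of both parents in Nipponbare/93-11, and 0.879 and 0.952 in 93-11/Nipponbare. For 93-11-only peaks of that width the medians were 0.959 against 0.978, and 0.947 against 0.976. Nipponbare peaks had the highest median width of the 4 lists. With each width divided by the median of its own list, an alternative chosen after seeing the data for single classes, 20.8% (19.4 to 22.1%) and 24.4% (22.9 to 26%) of Nipponbare-only peaks were narrowed, in place of 26.1 and 28.5%, against 9.07 and 10.5% of regions of both parents.

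At regions of both parents the hybrid width stayed close to the parents. Among 23513 regions with 1 peak in each of the 4 lists, the parental medians were 1549 bp (Nipponbare) and 1490 bp (93-11), and the hybrid medians 1496 bp (Nipponbare/93-11) and 1504 bp (93-11/Nipponbare). Across these regions, which share libraries and are not independent replicates, the mean hybrid and mean parental widths had a Pearson correlation of 0.901. The 2 hybrids had one of 0.837 and the 2 parents one of 0.783. The first value compares means over 2 lists and the others compare single lists, so they are not on a like scale and are not ranked. A Nipponbare/93-11 peak was narrower than both parental peaks in 37.1% of 24315 regions, between them in 36.1% and wider than both in 26.8%. For 93-11/Nipponbare the shares were 36.6, 33.9 and 29.5% of 23803. With 1 library per line, how often repeat libraries of a line would take these positions is unknown, so nothing is read from these shares. Changes past the fold limits were rare: 4.51% of Nipponbare/93-11 peaks were under 0.8 times the narrower parent, and in 2.10% the wider parent was under 0.8 times the hybrid peak, against 4.75 and 2.50% of 93-11/Nipponbare peaks.

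Where the parents themselves differed in width, the hybrids lay between them. At 1244 regions with a Nipponbare peak over 1.5 times as wide as the 93-11 peak, medians were 2001 bp in Nipponbare, 1074 bp in 93-11 and 1439 bp in Nipponbare/93-11. At 429 regions with the opposite order they were 1092, 2076 and 1443 bp. In 93-11/Nipponbare the medians were 1462 bp at 1197 regions of the first kind and 1510 bp at 419 of the second. The hybrid width was nearer to the wider parent in 54.4% (51.6 to 57.2%) and 48.7% (43.9 to 53.6%) of these regions in Nipponbare/93-11, and in 53.0% (50.2 to 55.9%) and 59.4% (54.6 to 64.2%) in 93-11/Nipponbare. These regions were chosen by their parental widths, whose extremes another library need not repeat, and the part of this in the middle position was not tested.

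The single regions below were named by width from each class, by a rule that used the H3K9ac lists. Among Nipponbare-only peaks kept in both hybrids, the widest lay on chromosome 7 between positions 28847230 and 28853515. There the single Nipponbare peak of 6285 bp stood against 2 peaks in each hybrid, 28847402 to 28849979 and 28850213 to 28853242 in Nipponbare/93-11, and 28847220 to 28849379 and 28850243 to 28852476 in 93-11/Nipponbare. H3K4me3 and H3K27me3 were listed there in all 4 lines. The next, on chromosome 3 between 10098040 and 10103856, was 1 peak of 5816 bp in Nipponbare and of 5896 bp in Nipponbare/93-11, and 2 peaks in 93-11/Nipponbare. On chromosome 5 between 19247000 and 19251894 the widths were 4894 bp in Nipponbare, 4730 bp in Nipponbare/93-11 and 4867 bp in 93-11/Nipponbare. On chromosome 10 between 22694236 and 22698679 they were 4443, 2912 and 2692 bp. Both hybrid peaks there ended short of the Nipponbare peak, and DNA methylation was listed in all 4 lines.

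The 4 widest 93-11-only peaks that both hybrids kept changed little in width. On chromosome 1 between 34138495 and 34143579 the peak measured 5084 bp in 93-11, 5363 bp in Nipponbare/93-11 and 5033 bp in 93-11/Nipponbare, and DNA methylation was listed in Nipponbare, the line without H3K9ac. On chromosome 7 between 18686231 and 18691105 the widths were 4874, 4811 and 5174 bp. On chromosome 2 between 30346540 and 30351218 they were 4678, 4747 and 4539 bp. On chromosome 1 between 42510360 and 42514742 they were 4382, 4410 and 4409 bp. At the last 3, Nipponbare alone lacked an H3K4me3 peak.

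Few wide regions of both parents were missing from both hybrids. The widest, on chromosome 1, was a Nipponbare peak from 1702116 to 1706081 and a 93-11 peak from 1702055 to 1705857, and none of the other 3 marks was listed there in any line. The second lay on the same chromosome between 32470708 and 32474538, with a Nipponbare peak of 2034 bp and a 93-11 peak of 3830 bp, and H3K4me3 was listed in all 4 lines. At the third, on chromosome 10 between 15106448 and 15109995, and the fourth, on chromosome 4 between 29571659 and 29575177, H3K4me3 was listed in 93-11 and Nipponbare/93-11. At 3 of these 4 regions H3K4me3 was thus listed in at least 1 hybrid, while H3K9ac was absent from both by the choice of regions. Over all 277 such regions H3K4me3 was listed on 39.0% in Nipponbare/93-11 and on 43.7% in 93-11/Nipponbare. The 4 were picked for their width, so nothing is read from their count.

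The widest Nipponbare-only peaks in neither hybrid carried no H3K4me3 or H3K27me3 in any line. They lay on chromosome 7 between 14492587 and 14498600 (6013 bp), on chromosome 1 between 3027254 and 3032999 (5745 bp) and on chromosome 3 between 31750399 and 31755445 (5046 bp). DNA methylation was listed at the first in Nipponbare, 93-11 and 93-11/Nipponbare, at the second in no line and at the last in 93-11. The mirror set was mixed. The 93-11-only peak on chromosome 3 between 6782694 and 6788078 (5384 bp) had no other mark in any line, and those on chromosome 4 between 30718565 and 30722845 (4280 bp) and on chromosome 8 between 24246022 and 24250116 (4094 bp) had H3K4me3 in all 4 lines.

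Among the widest single-parent peaks kept in 1 hybrid alone, 6 of 8 were narrowed there. Over all matched peaks of 3000 bp or more, 33.3% (Nipponbare/93-11) and 52.9% (93-11/Nipponbare) of Nipponbare-only and 16.7 and 16.5% of 93-11-only peaks were narrowed, and the 8 were picked for their parental width, so nothing is read from their count. The Nipponbare-only peak on chromosome 8 between 1460873 and 1467756 (6883 bp) met a Nipponbare/93-11 peak of 2032 bp and none in 93-11/Nipponbare, and that on chromosome 2 between 29134722 and 29139213 (4491 bp) one of 3180 bp. The one on chromosome 5 between 23411424 and 23415311 (3887 bp) met a 93-11/Nipponbare peak of 2498 bp alone, and that on chromosome 3 between 1410921 and 1414373 (3452 bp) one of 1297 bp. H3K4me3 was listed in both hybrids at all 4, and so also in the hybrid without H3K9ac. Over all 751 Nipponbare-only peaks in Nipponbare/93-11 alone, H3K4me3 was listed on 51.5% in that hybrid and 36.9% in 93-11/Nipponbare. Over all 224 in 93-11/Nipponbare alone, it was listed on 42.9% in that hybrid and 49.6% in Nipponbare/93-11. The 4 were picked for their width, so nothing is read from their H3K4me3. Among 93-11-only peaks, that on chromosome 4 between 24525083 and 24529716 (4633 bp) was matched by 1987 bp and that on chromosome 9 between 5553408 and 5557541 (4133 bp) by 4473 bp, both in Nipponbare/93-11 alone. In 93-11/Nipponbare alone, the peak on chromosome 3 between 3134340 and 3138968 (4628 bp) was matched by 3353 bp and that on chromosome 4 between 31201949 and 31206548 (4599 bp) by 4456 bp. The last carried no H3K4me3 in any line.

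At the largest gains in mean hybrid width the 2 hybrids had nearly the same borders. The rule favours regions where both hybrid peaks are wide, so nothing is read from this likeness. On chromosome 3, a region of 1685 bp in Nipponbare and 2087 bp in 93-11 measured 5018 bp in Nipponbare/93-11 (11146614 to 11151632) and 5156 bp in 93-11/Nipponbare (11146341 to 11151497). On chromosome 5, peaks of 1767 and 1702 bp in the parents stood against 4052 bp in Nipponbare/93-11 (27618539 to 27622591) and 4094 bp in 93-11/Nipponbare (27618494 to 27622588). On chromosome 9, parental peaks of 1370 and 1194 bp stood against 3320 and 3410 bp, which ended at 21879780 and 21879849. H3K4me3 was listed in all 4 lines at the first and the last of these. The 3 largest losses, picked for a mean hybrid width far below the mean parental width, had a very wide 93-11 peak and a narrow Nipponbare peak. The wide 93-11 peak thus set the parental mean, and no hybrid peak there was narrower than the Nipponbare peak. On chromosome 3 between 13337166 and 13345807 the parental widths were 1361 bp (Nipponbare) and 8641 bp (93-11), and the hybrid widths 1383 bp (Nipponbare/93-11) and 1616 bp (93-11/Nipponbare). On chromosome 5 between 14204258 and 14211569 they were, in the same order, 1264, 7311, 1796 and 1651 bp, and on chromosome 10 between 4892614 and 4901134 they were 1136, 8520, 2530 and 2856 bp.

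Kept shares differed little between chromosomes. For Nipponbare-only peaks the share in both hybrids went from 49.8% on chromosomes 2 (45.2 to 54.4%) and 3 (45.0 to 54.5%) to 59.5% (54.8 to 64.2%) on chromosome 12. For 93-11-only peaks it went from 44.6% (38.4 to 51.0%) on chromosome 8 to 54.2% (49 to 59.4%) on chromosome 3. Shifted levels moved more than this, from 28.5% on chromosome 3 to 16.4% on chromosome 11 for Nipponbare-only peaks. Chromosomes 3 and 8, named after the values of all 12 were seen, ordered the 2 parents in opposite ways. On chromosome 3, the share in neither hybrid was 31.9% (27.6 to 36.5%) for Nipponbare peaks and 21.7% (17.6 to 26.2%) for those of 93-11. On chromosome 8 it was 23.4% (19.3 to 27.9%) and 33.5% (27.7 to 39.7%), intervals that overlapped narrowly. Regions of both parents were kept in both hybrids in 94.5% (chromosomes 4 and 11) to 96.6% (chromosome 5) of cases.

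**Figure D5:**
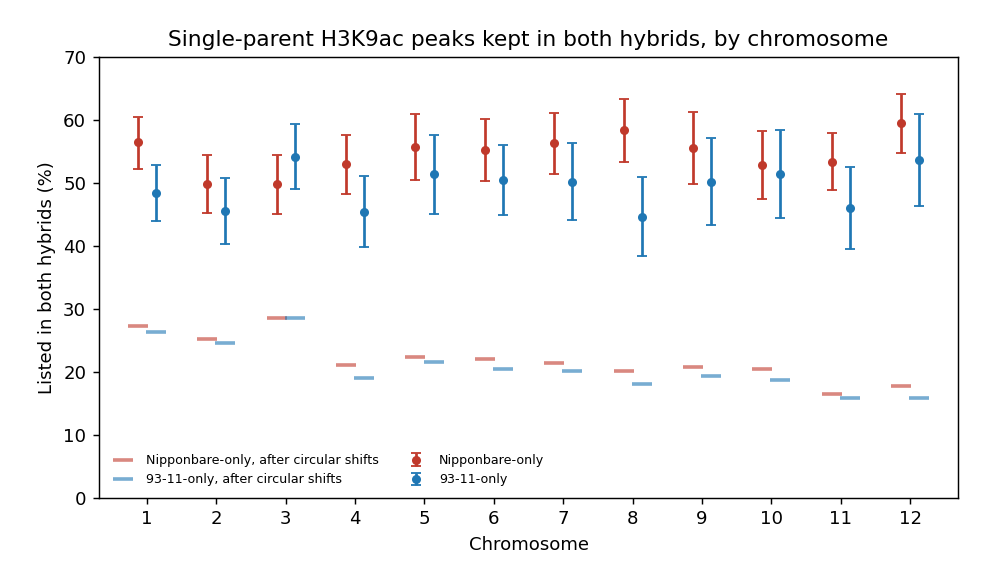
Points give the percentage of Nipponbare-only and 93-11-only H3K9ac peaks listed in both hybrids on each of the 12 chromosomes, with 95% counting intervals, and dashes the share after circular shifts (mean of 20). All points lie above their shifted level, between 49.8 and 59.5% for Nipponbare-only and between 44.6 and 54.2% for 93-11-only peaks.

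Most of each hybrid list was already present in a parent. Of the Nipponbare/93-11 peaks, 77.6% overlapped peaks of both parents, 11.3% of Nipponbare alone, 7.05% of 93-11 alone and 4.05% (1293 peaks, 3.83 to 4.27%) of neither. Of the 93-11/Nipponbare peaks the shares were 80.0, 10.2, 6.70 and 3.11% (942 peaks, 2.92 to 3.32%). Shifted parental lists left 71.1 and 70.9% of the hybrid peaks in neither parent. The other hybrid also listed 40.5% (37.8 to 43.3%) of such peaks of Nipponbare/93-11 and 54.2% (51.0 to 57.5%) of those of 93-11/Nipponbare. They were narrow, with medians of 1072 and 1112 bp, and 12.6 and 11.8% lay within 500 bp of a parental peak.

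H3K4me3 was listed in a parent at some of the hybrid peaks without a parental H3K9ac peak. At the 524 such peaks of Nipponbare/93-11 that the other hybrid shared, H3K4me3 was listed on 40.8 and 41.0% in the parents (Nipponbare first), on 56.9% (52.5 to 61.2%) in Nipponbare/93-11 and on 47.3% in 93-11/Nipponbare. At the 769 that Nipponbare/93-11 alone listed, the shares were 25.5, 28.3, 37.6 and 32.1%. Over all regions of both parents, H3K4me3 was listed on 90.0% in Nipponbare and on 92.0% in 93-11. No level after shifts is given for H3K4me3 at these hybrid peaks. The widest such region shared by the hybrids was on chromosome 1 between 33113967 and 33120103, as a Nipponbare/93-11 peak of 6117 bp and a 93-11/Nipponbare peak of 2058 bp. It was followed by chromosome 3 between 9581431 and 9586231 (4638 and 4778 bp), chromosome 9 between 18206053 and 18210374 (4192 and 4125 bp) and chromosome 6 between 26423271 and 26427468 (2678 and 4197 bp). H3K4me3 was listed in all 4 lines at each of these 4 regions, which were picked for their width, so nothing is read from their count.

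Set beside the other histone marks, H3K9ac of a single parent was kept less often than H3K4me3. Counted the same way, Nipponbare-only H3K4me3 peaks were in both hybrids in 65.0% of cases (shifted level 20.6%) and 93-11-only ones in 58.1%, against 54.6% (22.1%) and 49.1% (21.6%) for H3K9ac. The share in neither hybrid was 14.3 and 17.9% for H3K4me3, 26.5 and 26.4% for H3K9ac, and 28.6 and 26.3% for H3K27me3. Nipponbare-only H3K9ac peaks also had the lowest median width ratios, 0.914 and 0.901, against 0.978 and 0.981 for H3K4me3 and 0.983 and 0.988 for H3K27me3. Each mark rests on its own 4 libraries, so a difference between marks cannot be told apart from one between libraries.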

How the data were processed

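Chromatin was immunoprecipitated with an antibody against H3K9ac and sequenced, per the labels' protocols. The deposited lists hold chromosome, start and end of peaks in 3 columns, 1 list per library; they were used as given. No source used here gives the aligner, peak caller, threshold, control library or genome build, or which cultivar's genome the positions refer to. Width is end minus start. Against the protein-coding gene positions of assembly ASM3414082v1, 43.3% of Nipponbare H3K9ac peaks lay on a gene as given and 43.6 to 44.3% after moves of 20 to 200 kb, so that annotation was not used and regions are not tied to genes or sequences.

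Peaks counted as overlapping from 1 bp. Circular shifts used 20 fixed offsets, and peaks on organelle sequences were left out of them. No test was run between lines. The members, classes and rules were chosen with earlier results of these data known. Regions were named by width within each class of inheritance, and by the largest gain or loss of mean hybrid width. Alternatives were a 50% overlap, lists at or above their median width, equally long lists, merging of peaks under 500 bp apart, nuclear chromosomes alone, a width limit of 1.5 times and widths relative to the list median. The routines were tested on simulated data. The software was scipy 1.17.1, numpy 2.4.6, matplotlib 3.10.9 and pandas 2.3.3 under Python 3.11.15. RNA samples (8) were not analysed here.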

Additional observations from a re-analysis of the deposited data

How the results depend on the processing

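Of 78 alternative values of shares, 35 stayed within the counting interval of the reported one and 43 did not; the cause was not tested beyond what each alternative's construction shows. With peaks at or above the median width of each list, regions of both parents in both hybrids came to 82.6%, Nipponbare-only peaks to 33.9% and 93-11-only peaks to 34.8%, which turns their order, regions in neither hybrid to 16.8%, hybrid peaks in neither parent to 12.4% (Nipponbare/93-11) and 12% (93-11/Nipponbare), and narrowed peaks to 7.31% of single-parent and 1.88% of both-parent matches (22.4 and 4.63% reported, pooled over hybrids). Lists shortened to 28737 peaks gave, in that order, 90.8, 51.3, 38.0, 10.4, 3.11, 2.76, 17.0 and 3.62%. Requiring 50% of a peak to be covered gave 94.1% for regions of both parents, 8.29% in neither hybrid, 3.38% of 93-11/Nipponbare peaks in neither parent, and 21.2 and 4.05% narrowed. Merging peaks under 500 bp apart gave 3.77 and 2.92% in neither parent. A width limit of 1.5 times left 7.96 and 1.08% narrowed, and widths relative to the list median 19.4 and 3.91%. With the nuclear chromosomes alone no value left its interval.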

Other observations

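Single-parent H3K9ac peaks that stood next to each other were kept slightly more often in Nipponbare. Stretches of at least 5 successive peaks of the Nipponbare list that were Nipponbare-only, a definition taken from an earlier look at these data, numbered 84 and held 517 peaks, with 19 runs on chromosome 11 and 14 on chromosome 12. Both hybrids listed 61.3% (57.0 to 65.5%) of them and 51.3% (49.5 to 53.2%) of the 2779 with no Nipponbare-only neighbour, at median widths of 1376 and 1327 bp. In the space of these runs, against 517 peaks of Nipponbare, Nipponbare/93-11 listed 407 and 93-11/Nipponbare 361. The 93-11 list held 30 there, a count that the definition keeps low, since no 93-11 peak overlaps a peak of a run. In 93-11 there were 4 such runs with 21 peaks, of which 11 were in both hybrids.

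The runs themselves were uneven, as these examples chosen after their values were seen show. On chromosome 1 between 41729533 and 41853574, all 8 Nipponbare peaks were in both hybrids, and 93-11 had 0, which the definition of a run favours. On chromosome 7 between 2341072 and 2447184, of 9 Nipponbare peaks 1 was in both hybrids, with 7 peaks listed in Nipponbare/93-11 and 1 in 93-11/Nipponbare, and H3K4me3 peaks numbered 9, 1, 6 and 2 in Nipponbare, 93-11, Nipponbare/93-11 and 93-11/Nipponbare. On chromosome 10 between 1842268 and 2029185, 3 of 13 Nipponbare peaks were in both hybrids and 6 in neither, while H3K4me3 peaks numbered 7, 1, 8 and 8 in that order of lines. Parental regions missing from both hybrids formed 28 stretches of 3 or more neighbours, the longest with 5 on chromosome 11 from 26744263 to 26772141, made of 3 Nipponbare-only and 2 93-11-only peaks.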
